A study of Mus musculus with 12 samples.

Results

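Immediate early genes are switched on within minutes of a stimulus, without a need for new protein. Growth factors, depolarisation and injury reach them through the ERK kinase cascade and through calcium signals, which act on the transcription factors SRF with its ELK partners, CREB and MEF2 that already sit at their promoters. Their products are short-lived transcription factors, feedback inhibitors and synaptic proteins, and in the retina they are known as markers of light-driven activity and of the response to nerve damage. The 10 genes described here were taken as a list of symbols from the 25655 genes of the deposited tables, and all 10 were found and had counts in every library used. They are Fos, Fosb and Junb, which encode subunits of the AP-1 transcription factor, Egr1, Nr4a1 and Npas4, which encode other early transcription factors, Arc, which encodes a postsynaptic protein, Ier2, which encodes a small nuclear protein, Dusp1, which encodes a phosphatase of MAP kinases, and Btg2, which encodes an antiproliferative co-regulator.

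Whole retinae of C57BL/6J mice, 8 to 10 weeks old by their sample labels and 8 weeks old by the protocol, were collected 2 days after optic nerve crush (ONC) of the left eye and a single intravitreal injection, and their total RNA was sequenced. All groups carried the crush, so the PBS group is an injured control and no uninjured retina is among the samples. The injections were PBS, fluvastatin (a statin, which inhibits HMG-CoA reductase), MBV (matrix-bound nanovesicles, here from the extracellular matrix of porcine urinary bladder) or both agents. Count columns could be tied to a library in 9 of the 12 samples, 3 in each of the PBS, fluvastatin and MBV groups, and the combined treatment was not analysed here. Depth ranged from 26325065 to 30992040 gene counts in PBS libraries, from 23634662 to 27098889 in fluvastatin libraries and from 21349516 to 26738043 in MBV libraries. The library numbers in the sample labels run in 2 sets, with PBS in the first and fluvastatin and MBV in the second, so that treatment and set cannot be told apart in a comparison with PBS, whereas MBV and fluvastatin lie in the same set. How many retinae or mice went into a sample is not given in the labels, so p-values measure the spread between these samples. The 5 rod markers together reached 27896 to 44208 CPM (gene counts scaled to library size), and no marker of rods, Müller glia, ganglion, amacrine or bipolar cells was at 0 throughout a group. In whole tissue, fewer cells of a type and less RNA per cell cannot be told apart.

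The upstream sequences were searched for binding motifs of SRF and CREB. Other motifs were searched as well and are not described here. Of 18940 promoters of protein-coding genes, each taken as the 500 bases before the canonical transcript start in GENCODE M39 on GRCm39, 2.76% held a CArG box, the binding motif of SRF, 2.01% held the full CRE palindrome TGACGTCA bound by CREB, and 27.8% held TGACG, the CRE core, which the full palindrome contains on both strands. All motifs were searched on both strands. The CArG box was read only in its strict form, CC and GG around a run of A or T, so a site with another letter was not counted. The CArG box was found before Fos and Fosb, the full palindrome before Ier2, Dusp1 and Btg2, and the core before 8 of the 10 genes, with Npas4 and Arc as the exceptions. The windows of Fos (chr12:85520318-85520612, plus strand) and Fosb (chr7:19044007-19044298, minus strand) are shown because both paralogs carry the CArG box and a core match on the reverse strand, with 7 bases between them in each gene. Capitals mark the CArG box and the matches to TGACG on either strand.
Fos: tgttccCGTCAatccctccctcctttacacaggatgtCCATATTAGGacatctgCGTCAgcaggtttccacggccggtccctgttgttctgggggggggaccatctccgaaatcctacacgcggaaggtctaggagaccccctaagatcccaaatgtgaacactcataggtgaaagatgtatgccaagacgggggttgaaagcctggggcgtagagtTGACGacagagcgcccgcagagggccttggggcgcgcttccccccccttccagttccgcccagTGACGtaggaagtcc
Fosb: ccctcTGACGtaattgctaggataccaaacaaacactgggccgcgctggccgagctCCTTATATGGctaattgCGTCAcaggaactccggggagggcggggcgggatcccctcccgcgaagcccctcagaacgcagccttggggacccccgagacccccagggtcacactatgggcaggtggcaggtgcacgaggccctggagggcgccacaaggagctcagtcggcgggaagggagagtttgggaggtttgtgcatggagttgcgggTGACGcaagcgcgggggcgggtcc

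The full palindrome, in capitals, is shown with its flanks for the other 3 genes, which read Ier2 at chr8:85389500-85389545, Dusp1 at chr17:26727563-26727608 and Btg2 at chr1:134007033-134007078, all on the minus strand. It lay 43 to 36 bases before the start of Ier2, 96 to 89 before Dusp1 and 201 to 194 before Btg2. A match describes these letters and is not a measured binding site. On GRCm39 the deposited regions of these 5 genes were chr12:85520664-85524047 for Fos, chr7:19036621-19043976 for Fosb, chr8:85387960-85389483 for Ier2, chr17:26724564-26781102 for Dusp1 and chr1:134002908-134006858 for Btg2. Junb lay at chr8:85701113-85705347, Nr4a1 at chr15:101152150-101172676, Arc at chr15:74540932-74544419 and Npas4 at chr19:5034383-5040344, and counts are per gene over these regions.
Ier2: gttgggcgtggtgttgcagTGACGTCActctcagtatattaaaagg
Dusp1: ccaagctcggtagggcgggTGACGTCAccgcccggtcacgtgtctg
Btg2: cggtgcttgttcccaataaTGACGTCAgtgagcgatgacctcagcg

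Per kilobase of the canonical transcript, Btg2 had the highest level in the PBS retina, with 43.5 ± 3.88 CPM per kb (SD, n = 3), and its range did not overlap with that of the next gene in any group. Egr1 followed with 17.5 ± 7.37, Fos with 15.5 ± 6.89, Junb with 13.7 ± 6.95, Dusp1 with 10.97 ± 2.02, Nr4a1 with 10.4 ± 2.76 and Ier2 with 9.33 ± 1.46 CPM per kb. Neighbours among these 6 genes overlapped, so their order was not resolved in the PBS group. A step separated Ier2 from Npas4 in all groups, and Npas4 (1.61 ± 0.349), Fosb (1.04 ± 0.506) and Arc (1.00 ± 0.285 CPM per kb) were the 3 lowest genes with PBS. The same 3 genes were lowest with fluvastatin and with MBV. Neighbours among them overlapped with PBS, and Npas4 overlapped with Fosb with MBV, so their full order was resolved only with fluvastatin. Junb came next after Btg2 by its mean with fluvastatin. Its range there (13.3 to 21.9 CPM per kb) did not overlap with that of Dusp1, the next gene, but did with that of Fos (up to 13.8). With MBV, Junb (22.5 ± 12.3 CPM per kb) overlapped with Egr1 (21.2 ± 4.29). The place of Junb was thus not resolved with either treatment.

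The spread between replicates was large for the early transcription factors. Around the group means, the SD of log2(CPM + 0.5) was 0.68 for Junb, 0.49 for Fos, 0.47 for Fosb, 0.36 for Egr1 and 0.31 for Nr4a1, and it was 0.14 to 0.21 for the other 5 genes, from Btg2 to Arc. The median over the 10 genes was 0.26, and over the 13971 genes with a mean of at least 1 CPM it was 0.095. This spread had a direction within groups. PBS replicate 3 was the highest PBS library for all 10 genes, as it was for 40.3% of the 13971 genes. MBV replicate 3 was the lowest MBV library for 8 of the 10 genes, with Arc and Dusp1 as the exceptions, as it was for 36.4% of the 13971 genes. No fluvastatin library was highest for more than 5 genes.

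**Figure D1:**
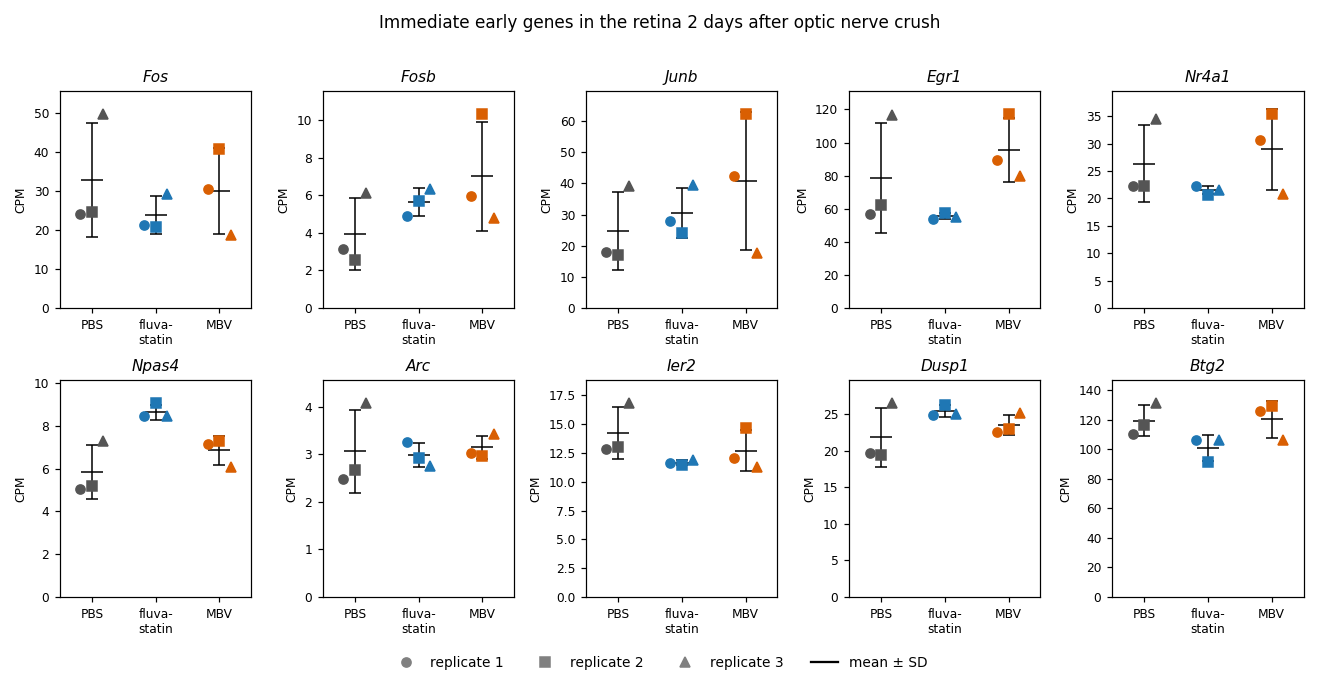
Level of each immediate early gene in CPM (y axis, linear from 0) in the 3 PBS, 3 fluvastatin and 3 MBV libraries (x axis); symbols are replicates and black bars are the mean ± SD. PBS replicate 3 is the highest PBS library in all 10 panels, and MBV replicate 3 is the lowest MBV library in 8.

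The same libraries also differed in markers of other cells. The summed level of 5 reactive glia markers (Gfap, Lcn2, Serpina3n, Timp1 and Socs3) was 88.8 and 76.96 CPM in PBS replicates 1 and 2 and 191 CPM in replicate 3, where all 5 were at their highest in the group. It was 116 to 176 CPM with fluvastatin and 123 to 165 CPM with MBV, and none of the 5 was at 0 throughout a group. The 5 monocyte markers (Ccr2, Ly6c2, Plac8, Ms4a4c and Chil3) summed to 0.785 to 2.39 CPM with PBS, 0.618 to 1.46 with fluvastatin and 3.25, 0.685 and 18.7 CPM in MBV replicates 1, 2 and 3, with all 5 highest in replicate 3 and none at 0 throughout a group. Of the 6 neutrophil markers, which summed to 0.959 to 5.09 CPM over the 9 libraries, 5 were highest within the MBV group in replicate 3, and Mmp8 was at 0 in all fluvastatin libraries. The 5 lens markers summed to 0.456 to 4.78 CPM with PBS, 1.74 to 19.1 with fluvastatin and 58.1 to 139 with MBV, and the 6 pigment cell markers to 98.6 to 146, 36.0 to 44.8 and 27.1 to 50.3 CPM. The 6 Müller glia markers summed to 2753 to 3398 CPM with PBS, 1611 to 2717 with fluvastatin and 1470 to 2643 with MBV, and the 5 erythrocyte markers to 6.50 to 8.25, 13.3 to 17.004 and 13.96 to 17.2 CPM, without overlap between PBS and either treatment. Within the MBV group, all 5 rod and all 8 ganglion cell markers were highest in replicate 3, where 8 of the 10 early genes were lowest. The part of these cells in the levels of the early genes was not tested.

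Fluvastatin was compared to PBS in the crushed retina, where treatment and set of library numbers cannot be told apart. Npas4 rose and Btg2 fell, and the other 8 genes did not pass an FDR of 0.05 in the quasi-likelihood F-test of edgeR, adjusted by Benjamini-Hochberg over all 18818 genes tested. That is 2 of 10 genes, beside 19.6% of all genes called in this comparison. An unadjusted p-value under 0.05 was reached by 4 of the 10 and by 32.5% of all genes. The median log2 fold change of the 10 genes was -0.14, beside -0.01 over all genes.

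Npas4, a neuronal transcription factor induced by calcium entry, had 5.04, 5.18 and 7.29 CPM in the PBS libraries and 8.44, 9.05 and 8.44 CPM with fluvastatin. All 3 fluvastatin libraries lay above all PBS libraries. The rise was 1.48-fold (log2 fold change 0.57, standard error 0.143, FDR 0.0194, edgeR). The FDR was 0.0939 without PBS replicate 1, 0.0700 without PBS replicate 2 and 0.0807 without fluvastatin replicate 2, with log2 fold changes of 0.47 to 0.76 over all 6 fits that left out a library.

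Btg2, which restrains cell division and belongs to the p53 targets, had 110, 117 and 131 CPM with PBS and 106, 91.0 and 106 CPM with fluvastatin, so that the groups did not overlap but came close. It fell by 0.24 on the log2 scale (standard error 0.0756, FDR 0.0491, edgeR), a fall to 0.846 of the PBS level. The call held in 1 of the 6 fits that left out a library, the one without fluvastatin replicate 1 (FDR 0.0203), and was lost without PBS replicate 1 (0.0537), 2 (0.0870) or 3 (0.151) and without fluvastatin replicate 2 (0.181) or 3 (0.0650). With MBV, Btg2 stood at 126, 129 and 106 CPM, around the PBS values.

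Egr1, a zinc finger factor downstream of ERK, had 56.5, 62.5 and 117 CPM with PBS and 53.8, 57.6 and 55.2 CPM with fluvastatin. The 3 fluvastatin libraries were close to each other and to the lower 2 PBS libraries. The log2 fold change was -0.50 (standard error 0.216, FDR 0.139, edgeR), and it was -0.10 without PBS replicate 3. Ier2 had 12.8, 13.0 and 16.8 CPM with PBS and 11.6, 11.5 and 11.9 CPM with fluvastatin, with no overlap (log2 change -0.29, standard error 0.108, FDR 0.0924, edgeR). Npas4, Ier2 and Btg2 were the 3 genes whose groups did not overlap, beside 36.6% of all genes.

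The AP-1 subunits did not pass in this comparison. Fos had 24.1, 24.4 and 49.5 CPM with PBS and 21.1, 20.7 and 29.3 with fluvastatin, and a log2 change of -0.46 (standard error 0.251 and FDR 0.237 in edgeR). Fosb had 3.12, 2.56 and 6.12 CPM with PBS and 4.90, 5.68 and 6.36 with fluvastatin (log2 fold change 0.53, standard error 0.271, FDR 0.205, edgeR). Junb had 18.04, 17.02 and 39.3 CPM with PBS and 27.8, 24.1 and 39.6 with fluvastatin (log2 fold change 0.31, standard error 0.287, FDR 0.510, edgeR). In all 3 genes PBS replicate 3 lay inside or above the fluvastatin range, while PBS replicates 1 and 2 lay below it for Fosb and Junb and inside it for Fos. Without PBS replicate 3, Fosb (log2 fold change 0.99, FDR 0.00665), Junb (0.80, FDR 0.0143) and Dusp1 (0.38, FDR 0.00751) passed as higher beside Npas4, and Btg2 no longer passed, in edgeR's test of the remaining 5 libraries. In that fit 16.2% of all genes were called. PBS replicate 3 was the highest PBS library for all 10 genes, so leaving it out moves each of their fold changes up. Junb overlaps Prdx2 and Dusp1 overlaps Ergic1 on the other strand in the deposited tables, and whether the counting used the strand is not given in the sources used here, so reads of the partner genes cannot be told apart from theirs. The deposited region of Dusp1 also begins 53609 bases upstream of its canonical start.

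Nr4a1, an orphan nuclear receptor, had 22.3, 22.3 and 34.5 CPM with PBS and 22.3, 20.7 and 21.6 with fluvastatin (a log2 fold change -0.29, standard error 0.146, FDR 0.202, edgeR). Dusp1 had 19.7, 19.4 and 26.5 CPM with PBS and 24.9, 26.3 and 25.0 with fluvastatin (0.22, standard error 0.108, FDR 0.189). Arc had 2.47, 2.66 and 4.07 CPM with PBS and 3.25, 2.92 and 2.76 with fluvastatin (-0.04, standard error 0.206, FDR 0.926). The fluvastatin libraries lay within the PBS range for Dusp1 and Arc and at or below its lower edge for Nr4a1.

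**Figure D2:**
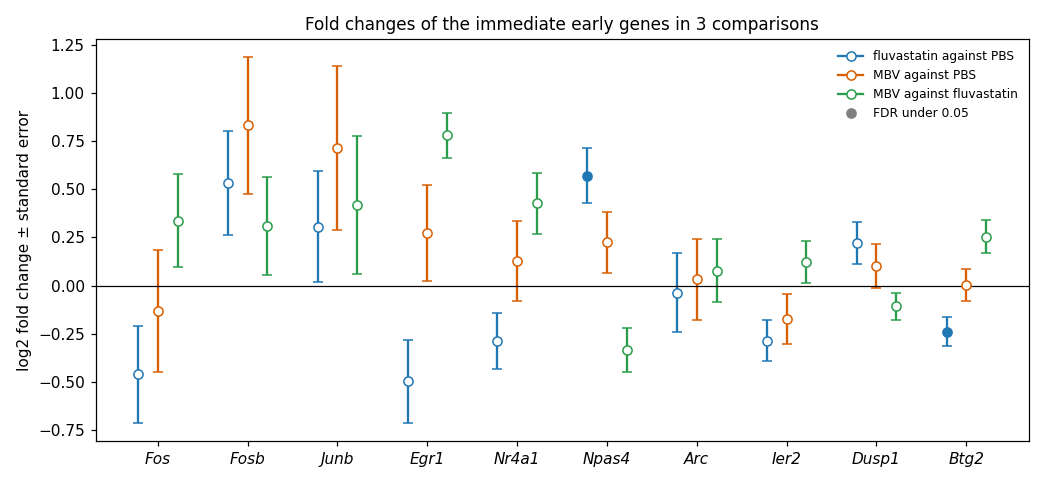
Log2 fold change of each immediate early gene (y axis, points with bars of 1 standard error, edgeR) in the comparisons of fluvastatin with PBS, MBV with PBS and MBV with fluvastatin; filled points passed an FDR of 0.05. The filled points are Npas4 (0.57) and Btg2 (-0.24) with fluvastatin, and the bars are widest for Junb, Fosb and Fos.

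MBV was compared to PBS in the same way, with the same 3 PBS libraries, so that both comparisons share their control. None of the 10 genes passed an FDR of 0.05 in edgeR (quasi-likelihood, Benjamini-Hochberg), nor in DESeq2, beside 26.1% of the 18897 genes tested with edgeR, and 1 gene, Fosb, had an unadjusted p-value under 0.05, as did 37.8% of all genes. Their median log2 fold change was 0.12, beside 0.01 over all genes, with 8 of the 10 above 0. No gene had groups that did not overlap, beside 41.3% of all genes.

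Fosb had 5.96, 10.3 and 4.79 CPM with MBV, with 2 libraries inside the PBS range and replicate 2 above it (log2 fold change 0.83, standard error 0.354, FDR 0.118, edgeR). Junb had 42.3, 62.2 and 17.8 CPM with MBV, above all PBS libraries in replicates 1 and 2 and among the lower PBS libraries in replicate 3 (log2 fold change 0.71, standard error 0.427, FDR 0.261, edgeR). Fos had 30.5, 40.7 and 18.6 CPM (log2 fold change -0.13, standard error 0.317, FDR 0.791, edgeR). Egr1 had 89.3, 117 and 79.9 CPM, above PBS replicates 1 and 2 in all 3 libraries (log2 fold change 0.27, standard error 0.249, FDR 0.470, edgeR).

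These values turned on replicate 3 of either group. Without MBV replicate 3, Fosb (log2 fold change 1.04, FDR 0.0227) and Junb (1.07, FDR 0.0111) passed as higher in edgeR's test, beside 30.1% of all genes called in that fit. Without PBS replicate 3, Fosb (1.29, FDR 0.0249), Egr1 (0.67, FDR 0.0160) and Dusp1 (0.26, FDR 0.0352) did, beside 22.1% of all genes. Leaving out any other library left 0 of the 10 genes called. MBV replicate 3 was the lowest MBV library for Fosb and Junb, so leaving it out moves their fold changes up, as leaving out PBS replicate 3 does. The other genes with MBV were Nr4a1 with 30.7, 35.4 and 20.8 CPM, Npas4 with 7.16, 7.31 and 6.07, Arc with 3.03, 2.97 and 3.42, Ier2 with 12.1, 14.7 and 11.3 and Dusp1 with 22.6, 23.0 and 25.2 CPM. Their log2 fold changes against PBS lay between -0.17 for Ier2 and 0.23 for Npas4.

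MBV and fluvastatin lie in the same set of library numbers and were compared directly. None of the 10 genes passed an FDR of 0.05 in edgeR (quasi-likelihood, Benjamini-Hochberg), beside 0.0588% of the 18721 genes tested, of which 0.0267% were higher and 0.032% lower with MBV. An unadjusted p-value under 0.05 was reached by 4 of the 10 genes and by 10.7% of all genes. DESeq2 called 1 of the 10, Egr1, beside 0.652% of all genes. Egr1 was 1.72-fold higher with MBV, with all 3 MBV libraries (79.9 to 117 CPM) above all 3 fluvastatin libraries (53.8 to 57.6 CPM). Its log2 fold change was 0.78 (standard error 0.119, p-value 7.78e-05 and FDR 0.0856 in edgeR, and an FDR of 5.08e-07 in DESeq2). It passed in edgeR without MBV replicate 2 (FDR 0.0125) or 3 (FDR 0.00264). Leaving out any other library gave FDRs of 0.114 to 0.426, so that it did not pass.

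The other 3 of these 4 genes were Btg2 (log2 fold change 0.25, FDR 0.370), Nr4a1 (0.43, FDR 0.411) and Npas4 (-0.34, FDR 0.374, edgeR). Npas4 was the lower gene with MBV, at 6.07 to 7.31 CPM against 8.44 to 9.05 with fluvastatin. Egr1, Npas4 and Btg2 did not overlap between the groups, beside 16.4% of all genes. Without MBV replicate 3, Nr4a1 (0.61, FDR 0.00982) and Btg2 (0.34, FDR 0.0490) passed as higher beside Egr1 in edgeR's test. In that fit 1.06% of all genes were called, beside 0.0588% with all 6 libraries. MBV replicate 3 was the lowest MBV library for Egr1, Nr4a1 and Btg2, so leaving it out moves their fold changes up. The median log2 fold change of the 10 genes was 0.28, beside 0.01 over all genes.

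Because the AP-1 genes were high and low in the same replicates, their reads were also set against those of Fos in the same library, a choice made after their values were seen. Per Fos read, the PBS libraries held 0.129, 0.105 and 0.124 reads of Fosb, those given fluvastatin 0.232, 0.275 and 0.217 and the MBV libraries 0.195, 0.254 and 0.258. All 6 treated libraries lay above all 3 PBS libraries. By the mean log2 ratio, Fosb per Fos read was 2.02-fold that of PBS with fluvastatin and 1.97-fold with MBV. Fos itself had log2 fold changes of -0.46 with fluvastatin and -0.13 with MBV, neither of them called. A ratio to Fos holds this change as well as that of the other gene. Junb had 0.747, 0.697 and 0.794 reads per Fos read with PBS, 1.32, 1.17 and 1.35 with fluvastatin and 1.38, 1.53 and 0.956 with MBV. Again no treated library reached down to the PBS range. By the mean log2 ratio, Junb per Fos read was 1.71-fold that of PBS with fluvastatin and 1.70-fold with MBV.

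The Egr1 ratio set MBV apart. It was 2.34, 2.56 and 2.36 with PBS, 2.54, 2.79 and 1.89 with fluvastatin and 2.92, 2.88 and 4.30 with MBV, above both other groups. The Npas4 ratio set fluvastatin apart from PBS, with 0.400, 0.438 and 0.288 against 0.209, 0.212 and 0.147, while MBV (0.234, 0.180 and 0.327) overlapped with both. The Dusp1 ratio was also higher with fluvastatin (1.18, 1.27 and 0.855) than with PBS (0.814, 0.793 and 0.535). Of the 9 genes set against Fos, 4 did not overlap between fluvastatin and PBS, 3 between MBV and PBS and 1 between MBV and fluvastatin. Over all genes with counts in every library compared, the same held for 12%, 4.18% and 1.83%. Fos was chosen because it was high and low in the same replicates as the other AP-1 genes, so these shares are not a like background. In an exact permutation test of the mean log2 ratio (two-sided, 3 against 3), each of these 8 differences had a p-value of 0.1, the smallest that the design allows, and 0.338 after Benjamini-Hochberg adjustment over 27 tests.

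**Figure D3:**
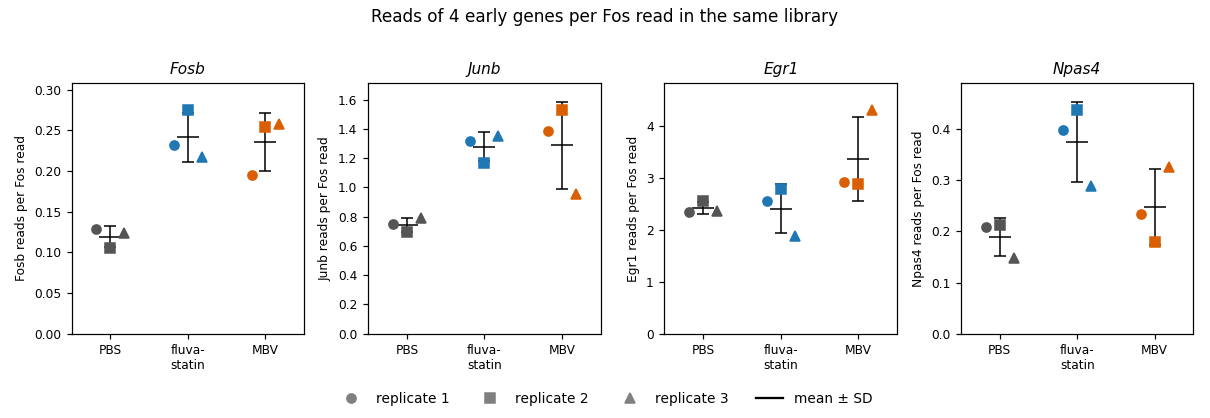
Reads of Fosb, Junb, Egr1 and Npas4 per Fos read in the same library (y axis, linear from 0) in the 3 groups (x axis); symbols are replicates and black bars are the mean ± SD. For Fosb and Junb all 6 treated libraries lie above the 3 PBS libraries (highest PBS values 0.129 and 0.794), and for Egr1 the MBV libraries lie above the other 6.

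The rest of the early response was read from 4 lists of other genes. These lists were chosen with earlier results of these data known, so the shares over all genes are not a like background for them. Of 20 other early transcription factors, 9 rose with MBV compared to PBS and none fell (beside 12% of all genes called higher), and 3 rose with fluvastatin and none fell (beside 9.36%) (edgeR, quasi-likelihood, Benjamini-Hochberg). Their median log2 fold change was 0.52 with MBV and 0.20 with fluvastatin, beside 0.01 and -0.01 over all genes. The 9 became 3 without PBS replicate 2, 4 without PBS replicate 1, MBV replicate 1 or MBV replicate 2, and 11 without MBV replicate 3. The 3 became 0 without PBS replicate 1, PBS replicate 2 or fluvastatin replicate 3, 1 without fluvastatin replicate 2 and 5 without PBS replicate 3 or fluvastatin replicate 1.

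With MBV the smallest FDRs belonged to Per1, a clock gene that CREB induces, Nfil3, a bZIP repressor, and Nr4a3, a paralog of Nr4a1. For Nr4a3 the PBS libraries stood at 1.75, 1.47 and 2.39 CPM, those given fluvastatin at 2.64, 2.92 and 2.33, and the MBV libraries at 4.68, 4.57 and 4.02. Its 3 MBV libraries lay above all others, with a log2 fold change of 1.24 against PBS (standard error 0.198, FDR 0.00262, edgeR). Per1 rose from 102 ± 2.00 to 127 ± 3.58 CPM (SD, n = 3 each, FDR 0.00143, edgeR) and Nfil3 from 11.1 ± 1.48 to 17.6 ± 1.30 CPM (FDR 0.00245, edgeR), and all 3 genes passed in each of the 6 fits that left out a library. Outside the rule for named genes, and chosen after their values were seen, the Egr1 paralogs Egr2 and Egr3 rose with MBV. Their paralog Egr4 (log2 fold change 0.16, FDR 0.803, edgeR) and Egr1 itself did not pass. Egr2 had 1.01, 0.750 and 1.18 CPM with PBS and 2.38, 3.97 and 1.71 after MBV (a log2 change of 1.44, FDR 0.0128, edgeR), with an FDR of 0.0508 without PBS replicate 2. Egr3 had 1.36, 1.84 and 1.98 CPM with PBS and 2.96, 4.02 and 2.18 after MBV (0.81, FDR 0.0459, edgeR) and passed in 1 of those 6 fits, the one without MBV replicate 3.

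With fluvastatin the 3 genes were Maff, a small bZIP partner (log2 fold change 0.76, FDR 0.0327), Fosl2, another AP-1 subunit (0.56, FDR 0.0381), and Klf6, a zinc finger factor (0.36, FDR 0.0396, edgeR). Fosl2 had 15.2, 12.6 and 21.2 CPM with PBS and 24.3, 20.5 and 27.3 with fluvastatin, so that 1 fluvastatin library lay inside the PBS range. Each of the 3 passed in 2 of the 6 fits that left out a library, those without PBS replicate 3 or fluvastatin replicate 1.

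**Figure D4:**
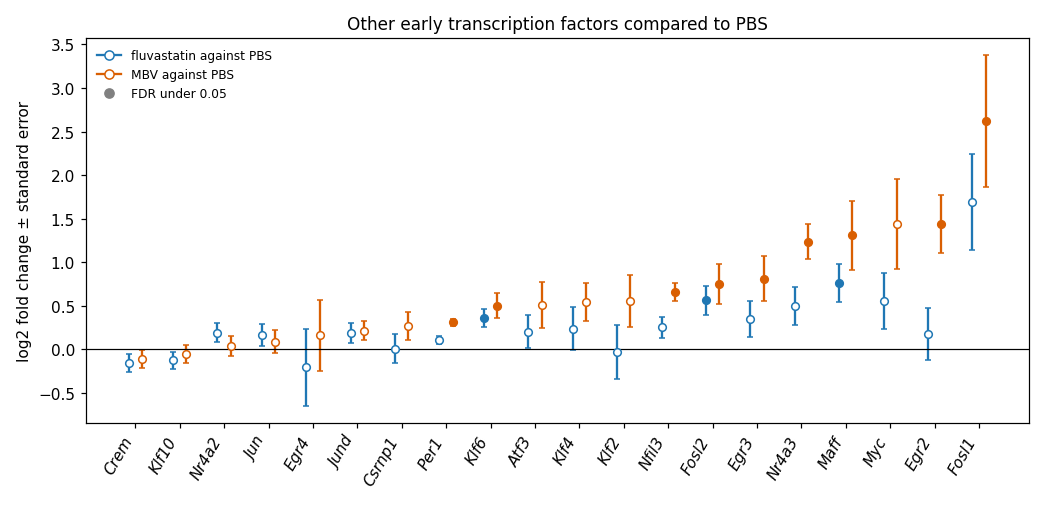
Log2 fold change of the 20 other early transcription factors (y axis, points with bars of 1 standard error, edgeR), ordered by their change with MBV, for fluvastatin and MBV each compared to PBS; filled points passed an FDR of 0.05. The list has 9 filled points with MBV and 3 with fluvastatin, all above 0.

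Among 24 other early effectors and feedback genes, 2 rose and 4 fell with fluvastatin, and 2 rose and 6 fell with MBV, beside 9.36%, 10.2%, 12% and 14.1% of all genes in the same order. Homer1, which encodes a postsynaptic scaffold, averaged 87.4 ± 1.73 CPM in PBS libraries, 73.6 ± 3.08 after fluvastatin and 70.6 ± 3.67 after MBV (SD, n = 3 each) and was lower with both (FDR 0.00691 and 0.00263, edgeR), in every fit that left out a library. Btg1, the paralog of Btg2, fell by 0.20 with fluvastatin (FDR 0.00698) and by 0.16 with MBV on the log2 scale (FDR 0.0154, edgeR), the latter with FDRs of 0.0700 without PBS replicate 1 and 0.0519 without MBV replicate 1. Gem, a small GTPase, fell by 0.39 on the log2 scale with fluvastatin (FDR 0.00642, edgeR). Dusp4, a nuclear MAP kinase phosphatase, fell by 0.31 on the log2 scale with MBV (FDR 0.0146, edgeR, and 0.0650 without PBS replicate 1). The higher genes were Plk2 with both treatments, Zfp36l1 with fluvastatin and Gadd45g with MBV. Plk2 lost its call with both treatments without PBS replicate 1 or 2, and with fluvastatin also without fluvastatin replicate 2 or 3. Zfp36l1 lost its call without PBS replicate 1 or 2 or fluvastatin replicate 3. Gadd45g kept its call only without MBV replicate 3, and its FDR was 0.0686 to 0.154 when any other library was left out (edgeR). All 6 fits that left out a library gave 0 to 5 higher and 3 to 4 lower genes with fluvastatin, and 0 to 5 and 2 to 7 with MBV.

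Of 23 upstream kinases and constitutive factors, 5 rose and 4 fell with fluvastatin and 7 rose and 3 fell with MBV, beside the same 9.36%, 10.2%, 12% and 14.1% of all genes. Leaving out a library gave 6 to 9 called genes with fluvastatin and 7 to 10 with MBV. Elk1, the ERK-activated partner of SRF at the CArG box, stood at 36.8, 36.6 and 36.6 CPM in PBS libraries, at 49.8, 48.6 and 45.3 after fluvastatin and at 47.1, 50.01 and 47.8 after MBV. On the log2 scale it was higher by 0.38 with fluvastatin (standard error 0.0540, FDR 0.00164) and by 0.39 with MBV (standard error 0.0479, FDR 0.000927, edgeR). Rps6ka2, which encodes an RSK kinase below ERK, and Mef2d were higher as well, by 0.33 and 0.40 with fluvastatin and by 0.30 and 0.34 with MBV on the log2 scale (largest FDR 0.00264, edgeR). Mef2c was lower, with log2 fold changes of -0.37 with fluvastatin and -0.67 with MBV (FDR 0.00868 and 0.00279, edgeR). These 4 genes passed in every fit that left out a library. Elk4 was lower with fluvastatin (-0.18, FDR 0.0203) and lost its call without PBS replicate 1, PBS replicate 2, fluvastatin replicate 2 or fluvastatin replicate 3, with FDRs of 0.0513 to 0.0768. Map2k1, which encodes an ERK kinase, was lower with MBV (-0.25, FDR 0.00711, edgeR) in all 6 such fits. It was also called lower with fluvastatin (57.1, 58.0 and 61.6 CPM, against 64.9, 64.8 and 70.6 with PBS). That call held only without fluvastatin replicate 3, and the other such fits gave FDRs of 0.0664 to 0.149 (edgeR). Between MBV and fluvastatin none of the 74 genes of the 4 lists passed in edgeR. An unadjusted p-value under 0.05 was reached there by 17 of the 74, beside 10.7% of all genes. DESeq2 called 2 of the 74, beside 0.652% of all genes.

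Late activity-regulated genes are known as targets of the early factors. Of 7 such genes, Scg2 rose with fluvastatin (log2 fold change 0.15, FDR 0.0257) and Nptx2 with MBV (0.20, FDR 0.0206, edgeR), and both calls were lost in 4 of the 6 fits that left out a library. A single gene of 7 is close to the 9.36% and 12% of all genes called higher. The median log2 fold change of the list was 0.09 with fluvastatin and -0.05 with MBV, beside -0.01 and 0.01 over all genes.

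The genes whose level followed the 10 early genes most closely over the 9 libraries were picked by the highest Pearson r with their mean standardised level, out of 13961 genes, so no p-value is given. They were Mpst (r 0.974, Spearman rho 0.983), Pygo2 (0.950, rho 0.950), Nlrc5 (0.946, rho 0.950), Tnfrsf1a (0.926, rho 0.950) and Zcchc24 (0.918, rho 0.950). Without the 2 libraries farthest from the median, PBS replicate 3 and MBV replicate 2, r was 0.958, 0.914, 0.910, 0.939 and 0.940. Tnfrsf1a, which encodes a TNF receptor, stood at 9.20, 8.49 and 18.01 CPM in PBS libraries, at 13.3, 9.79 and 14.8 after fluvastatin and at 16.7, 21.8 and 10.8 after MBV, with PBS replicate 3 and MBV replicate 2 highest in their groups, as for most of the 10 genes. The 9 points come in 3 treatment groups and are not independent of them.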

How the data were processed

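Read counts per gene were made by the authors, who aligned 75-base paired reads of total RNA to GRCm39 and counted them with CLC Genomics Workbench. The deposited counts are raw and unnormalised, and the annotation release is not given in the sources used here. The tables also hold the authors' own fold changes and p-values, which were not used. Of the count columns, 6 in the table of the combined treatment carry no library name and were used in no step. A library listed in more than 1 table held the same values each time (9 of 9 repeats).

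In each comparison, genes without any count in its 6 libraries were dropped, and the rest were normalised by TMM and tested with edgeR 4.0.16 (quasi-likelihood test, Benjamini-Hochberg adjustment, R 4.3.3) in a fit of the 2 groups, after a check on simulated counts. The simulated counts had less spread than the median of the 10 genes and larger changes, so that check does not measure power for them. CPM values use TMM factors over the 9 libraries. Levels per kb use the canonical transcript of GENCODE M39. DESeq2 1.42.0, RLE size factors, a count filter, 1 fit of all libraries, a replicate block and leaving out each library were alternatives. Levels, ratios and exact permutation tests were computed in Python 3.11.15 with pandas 2.3.3, numpy 2.4.6 and scipy 1.17.1. The 10 genes, the lists and the tests were chosen with earlier results of these data known. Named genes are the 10 members and, from each list, up to 3 called genes per direction and comparison, taken in order of FDR, and the 5 other genes that correlate best with the members. A gene that this rule names among the upstream factors is not reported here. Fits with the combined treatment were planned and not made. All members had at least 65 counts in every library. Intervals and errors do not cover differences between extractions or sets of library numbers.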

Additional observations from a re-analysis of the deposited data

How the results depend on the processing

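Counts of the 10 genes called with fluvastatin compared to PBS were 2 in edgeR, 1 (Npas4) with RLE size factors, with more than 10 counts in 2 libraries of a group, or in 1 fit of all 9 libraries, 4 with the replicate block (Npas4, Btg2, Fos with a log2 fold change of -0.41 and FDR of 0.0200, and Junb with 0.37 and 0.0351, edgeR), and 0 to 4 when a library was left out. With MBV compared to PBS they were 0, and 0 to 3 when a library was left out. Between MBV and fluvastatin they were 0, 1 (Egr1) with DESeq2, and 0 to 3 when a library was left out. Over all genes, 3687, 4937 and 11 were called in the 3 comparisons. Leaving out a library gave 1726 (without PBS replicate 1) to 4402, 2711 (without PBS replicate 1) to 5664, and 0 (without MBV replicate 1) to 197 (without MBV replicate 3), and between MBV and fluvastatin the count was 122 with DESeq2, 5 with the filter, 0 with the replicate block and 38 in 1 fit of all libraries. Of 330 values of single genes under these alternatives, 304 kept their side of the threshold, 15 passed newly, 11 no longer passed and 14, all uncalled, had the other sign. Samples with the same replicate number correlated at -0.43 to 0.19 in their deviations from the group means over 13971 genes, 1 of 9 libraries correlated best with its own number, and nothing in the labels says that the number marks a shared animal or day, so that no pairing was assumed. CPM on the raw total moved none of the 30 group means by 1 SD. The planned fits with the combined treatment were not run, since its count columns name no library. Fosb and Arc had 65 to 226 counts per library, and counting error is part of their spread.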
